A study of Mus musculus with 9 samples.

Results

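The outer root sheath (ORS) is the outermost epithelial layer of the hair follicle, and here it was set against the populations at either end of it. Its 2 libraries, of 9 in the series, were compared with the mean of the 3 libraries of hair follicle stem cells (HFSC), which sit in the bulge above, and the 2 libraries of basal hair bulb cells (basal HB), which lie at the base of the follicle below. The contrast asks in which genes the sheath stands apart from the average of its neighbours. A further division separates genes in which ORS lay above or below both neighbours from genes in which it lay between them. The other 2 libraries, of suprabasal hair bulb cells (suprabasal HB), entered the fit for its estimate of spread and are used only as values beside the results.

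All 4 populations share their background. The labels give mouse back skin at postnatal day 30 (P30) in anagen VI, the last step of the growth phase, a sex entry of "Mixed", the strain Lhx2-GFP (CD1), and sorting on GFP, P-cadherin, Sca-1, CD34 and the integrins α6 and β1. The text on extraction names a different reporter, K14-H2BGFP, and speaks of hair bulb cells alone, so which reporter supplied the GFP of ORS is unknown here. Gates, animals per sample and the origin of the replicates are not given, and p-values measure the spread between these libraries, which may be technical. Total expected counts were 64569201 and 88596741 in ORS, 25098237 to 29902799 in HFSC and 60990600 and 63511683 in basal HB, so the HFSC side is the shallowest and 3 counts there are worth 0.1003 to 0.1195 CPM. Levels below are normalised CPM, the counts divided by the scaled size of each library.

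The ORS is continuous with the basal epidermis and surrounds the growing hair. Its cells derive from bulge stem cells and divide as the follicle grows down. The lower end of the sheath meets the germinative matrix of the bulb, whose basal cells feed the lineages of the hair shaft and inner root sheath under WNT, BMP and hedgehog signals. Genes for making DNA are switched on by E2F factors before replication, and genes for mitosis are switched on later by complexes that read a CHR element (cell cycle genes homology region) beside CCAAT boxes, which bind the factor NF-Y.

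Of 20491 genes tested, 2868 were higher in ORS than the mean of its neighbours (14%) and 3415 were lower (16.7%), by edgeR's quasi-likelihood test at an adjusted p under 0.05. Against HFSC alone 3703 genes were higher (18.1%) and 4873 lower (23.8%), and against basal HB alone 3004 were higher (14.7%) and 3241 lower (15.8%). Both comparisons use the same ORS libraries and are not independent. A gene was placed in a class when the larger of its 2 one-sided p-values, adjusted over all genes, was under 0.05. This value is the adjusted p given with each gene below, from edgeR. This put 631 genes above both neighbours (3.08%), 591 below both (2.88%), 325 between them with HFSC highest (1.59%) and 35 between them with basal HB highest (0.171%), so 7.72% of all genes were in a class. All ORS libraries exceeded all 5 neighbour libraries in 3030 genes (14.8%) and lay under all 5 in 2624 (12.8%). Every member of a class was free of overlap with both neighbours, as were 8917 of the 20491 genes tested.

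These counts rest on few libraries. The contrast called 1602 higher and 1989 lower genes without ORS 2 and 1900 higher genes without basal HB 1. Against basal HB the higher genes numbered 1940 without ORS 2, 1330 without basal HB 1 and 1823 without basal HB 2, and the lower genes 2095 without basal HB 1. Genes above both numbered 321 and 341 without ORS 1 and 2 and 105 and 144 without basal HB 1 and 2. Genes below both numbered 392 and 376 without HFSC 1 and 3, 213 without ORS 2, and 236 and 172 without basal HB 1 and 2. Genes with HFSC highest numbered 12 without basal HB 1 and 82 to 122 without any other library of the 3 populations. Without suprabasal HB 2, which shares the spread of the fit, that class held 225. On deposited TPM (pseudocount 1) 5991 genes were higher and 2756 lower than HFSC, 166 genes were below both and 41 between with HFSC highest.

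The contrast and the classes select different genes. Of the 2868 genes above the neighbour mean, 631 were above both neighbours (22%), 14 were in a between class and 2223 were in no class. The separate tests called 1126 of them against each neighbour, 1157 against HFSC alone and 513 against basal HB alone. Of the 3415 genes below the mean, 591 were below both (17.3%), 38 in a between class and 2786 in none, and the separate tests called 1109 against each neighbour, 1176 against HFSC alone and 996 against basal HB alone. In ordered genes the 2 changes have opposite signs and offset each other in the contrast, so few calls follow from its form. It called 47 of the 325 genes with HFSC highest and 5 of the 35 with basal HB highest. Over all 20491 genes tested it called 6283. By estimate alone ORS lay between its neighbours in 312 of the higher (10.9%) and 637 of the lower genes (18.7%).

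**Figure D1:**
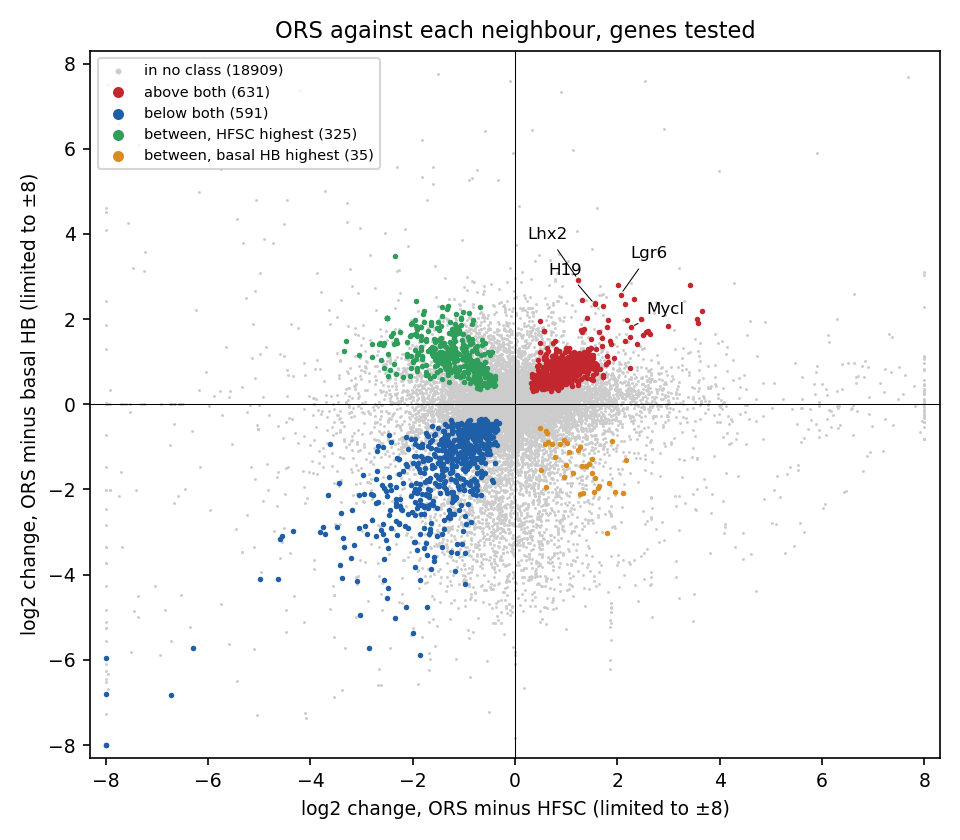
Each point is 1 of 20491 genes, with the log2 change of ORS minus HFSC on the horizontal axis and of ORS minus basal HB on the vertical axis, both limited to ±8. Red points (631) lie above both neighbours, blue (591) below both, green (325) between with HFSC highest and orange (35) between with basal HB highest, and the 4 markers are named.

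The classes differed in the size of their changes, and these medians describe genes selected on the same values. Genes above both neighbours had a median of 0.84 on the log2 scale against HFSC and 0.76 against basal HB, and 98 of 631 (15.5%) were at least 2-fold higher than each. Genes below both had medians of -1.21 and -1.25, and 285 of 591 (48.2%) were at least 2-fold lower than each. In the class with HFSC highest the medians were -1.18 against HFSC and 1.11 against basal HB, and with basal HB highest 1.27 and -1.43. Over all genes tested the medians were -0.05 and 0.04. Protein-coding genes made up 610, 575, 308 and 35 members in this order.

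The label was checked against keratins and other markers of the sheath. Krt5, the type II keratin of basal keratinocytes, was read in ORS at 2349 and 3090.4 CPM, and its partner Krt14 at 286 and 308 CPM, so both are present in either library. Neither is highest in ORS: Krt5 stood at 5513, 6251 and 5669 CPM in HFSC and 1115 and 1291 in basal HB, and Krt14 at 1351, 2128 and 1676 and 229.9 and 260.0. Of 7 tested keratins of the sheath and its companion layer, 2 were below both neighbours (Krt16 and Krt17), Krt5 lay between with HFSC highest, and none was above both. Over all genes these shares were 2.88%, 1.59% and 3.08%. Krt17 stood at 611 and 476 CPM in ORS, 2107, 2802 and 2275 in HFSC and 909 and 948 in basal HB. The adjusted p of Krt17 was 0.0356, and without single libraries it rose above the threshold to 0.06 (HFSC 3), 0.217 (ORS 2), 0.133 (basal HB 1) and 0.178 (basal HB 2). Krt16 had low levels, at most 0.694 CPM in ORS. The call of Krt5 was lost without ORS 1 (0.0574) or basal HB 1 (0.103), and that of Krt16 without HFSC 2 (0.0605), HFSC 3 (0.0741), ORS 2 (0.127), basal HB 1 (0.0595) or basal HB 2 (0.0657). Among transcripts of the surface sort markers, Cd34 lay between the neighbours, at 65.7 and 80.7 CPM in ORS, 412, 381 and 344 in HFSC and 34.7 and 41.5 in basal HB. Its adjusted p of 0.0327 was lost without any 1 of the 7 libraries compared (0.055 to 0.262). Itga6, Itgb1, Cdh3 and Ly6a were in no class. The sort used the proteins of these markers, so gates and expression cannot be told apart for them. On TPM the calls of Krt16 (0.109 and 0.0946 with pseudocounts of 1 and 0.1), Krt5 (0.0791 and 0.075) and Cd34 (0.201 and 0.231) were lost.

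Lhx2, Lgr6, H19 and Mycl mark the sheath in these data, and they were picked with earlier results of the same libraries known, so their levels describe the population and support nothing. Lhx2, a LIM homeodomain transcription factor of hair follicle stem cells (ENSMUSG00000000247, chromosome 2, 38339281 to 38369733, mm10), stood at 2961 and 3383 CPM in ORS, 1351, 1274 and 1422 in HFSC and 354 and 479.9 in basal HB. Both ORS libraries exceeded every neighbour library, and the gap was wider to basal HB (7.604-fold) than to HFSC (2.35-fold). The GFP reporter of the strain label is named after Lhx2 and GFP was a sort marker, so the part of the gates in its level was not tested. Its adjusted p of 0.0263 was lost without any single library of the 3 populations, at 0.0613, 0.0608 and 0.0607 without HFSC 1, 2 and 3, 0.0669 and 0.127 without ORS 1 and 2, and 0.0766 and 0.0674 without basal HB 1 and 2.

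Lgr6, a receptor for R-spondins that strengthens WNT signalling (ENSMUSG00000042793, chromosome 1, 134983301 to 135105276), was read at 128 and 209.7 CPM in ORS, 38.2, 36.9 and 46.0 in HFSC and 26.7 and 29.8 in basal HB. Its log2 change was 2.06 (SE 0.24) against HFSC and 2.58 (SE 0.28) against basal HB, with adjusted p = 0.0025 in edgeR. The ORS libraries differed from each other more than the neighbours did, yet the lower of them was above all 5. H19, an imprinted long noncoding RNA (ENSMUSG00000000031, chromosome 7, 142575529 to 142578143), reached 156 and 138 CPM in ORS, 55.7, 36.7 and 57.4 in HFSC and 26.5 and 31.5 in basal HB. Basal HB was lowest of the 3 and ORS far above both. Mycl, a MYC family transcription factor (ENSMUSG00000028654, chromosome 4, 122995652 to 123002485), was read at 555 and 745 CPM in ORS, 112, 134 and 161 in HFSC and 169.6 and 201.2 in basal HB. H19 was 2.95-fold higher than HFSC and 5.08-fold higher than basal HB, and Mycl 4.78-fold and 3.51-fold higher, with adjusted p = 0.0025 for each. Lgr6, H19 and Mycl kept their class in all 19 alternatives run.

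**Figure D2:**
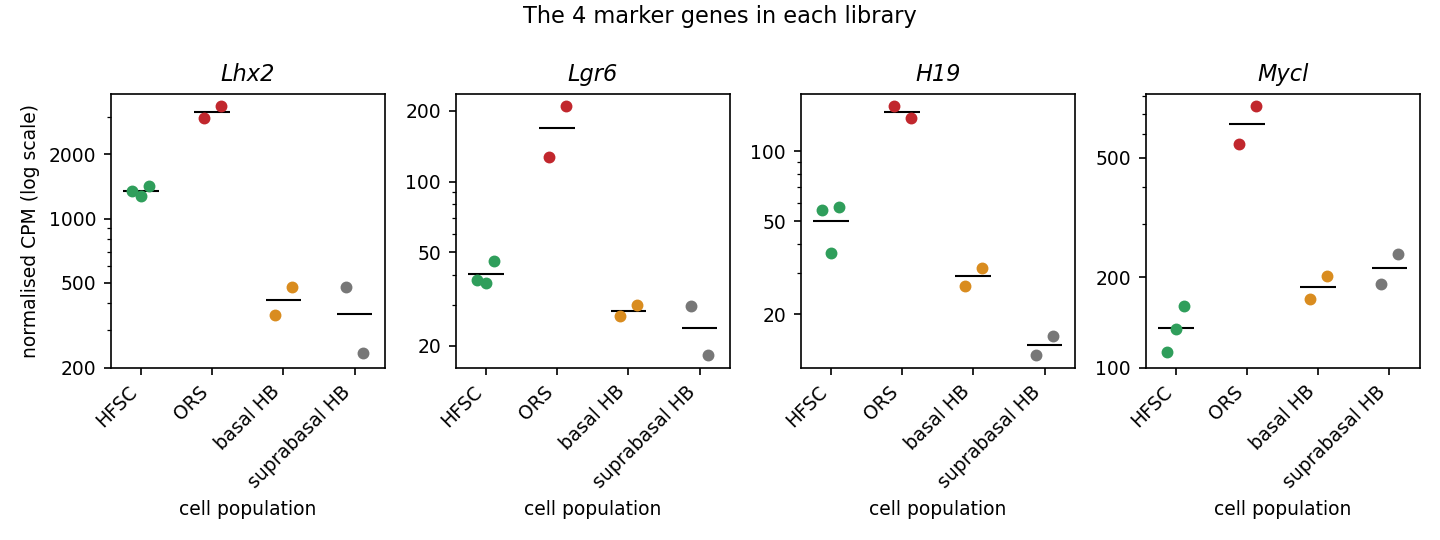
Normalised CPM (log scale) of the 4 marker genes in each of 9 libraries, by cell population, with a bar at the mean. The ORS points lie above all HFSC, basal HB and suprabasal HB points in each panel, with Lgr6 in ORS at 128 and 209.7 CPM.

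Of the relatives of these genes in the lists below, only Lgr4 shared their class. Among 21 LGR receptors, R-spondins and WNT receptors, Lgr6 and Lgr4 were above both neighbours, Rspo4 and Fzd3 below both, and Fzd2 between with HFSC highest. These classes held 3.08%, 2.88% and 1.59% of all genes. Lgr4, the widely expressed member of the receptor family, stood at 239 and 262 CPM in ORS, 165, 183 and 187 in HFSC and 87.6 and 96.4 in basal HB (adjusted p = 0.0153). The third receptor, Lgr5, had 265 and 422 CPM in ORS, 539.9, 542 and 509.6 in HFSC and 63.1 and 93.9 in basal HB, and was in no class. Rspo4, a secreted ligand of these receptors, was at 0.930 and 0.525 CPM in ORS, 3.99, 2.66 and 1.96 in HFSC and 27.9 and 31.8 in basal HB (adjusted p = 0.0133). Lgr4 lost its call without ORS 2 (0.112), basal HB 1 (0.0626) or basal HB 2 (0.0573), and Rspo4 without ORS 2 (0.0837) or basal HB 2 (0.0514). The call of Fzd3 held without HFSC 1, ORS 1 or suprabasal HB 1 and had up to 0.144 otherwise (ORS 2), and that of Fzd2 held only without suprabasal HB 1 or suprabasal HB 2 and had up to 0.215 (basal HB 1). Of 13 genes of the MYC and MXD network, Mycl was above both and the antagonists Mxd1 and Mxd4 were below both. Over all genes these shares were 3.08% and 2.88%. The call of Mxd4 was lost without basal HB 1 (0.0541) or basal HB 2 (0.0984), and that of Mxd1 held only without suprabasal HB 1, with up to 0.184 otherwise. Mycn, the MYC member of growing hair matrix, was in no class, at 72.9 and 68.3 CPM in ORS, 11.4, 15.5 and 13.2 in HFSC and 56.8 and 66.3 in basal HB. Of 24 tested imprinted genes 1, H19, was in a class, near the 7.72% of all genes, and 12 were called lower than the neighbour mean, beside 16.7% of all genes. Of 12 LIM homeobox factors and cofactors, Lhx2 was above both, and Lmo1 and Lmx1b lay between with HFSC highest. Over all genes these shares were 3.08% and 1.59%. Lmo1 lost its call without any library of the 3 populations except ORS 2 (up to 0.153), and Lmx1b without any single library (up to 0.314). On TPM with a pseudocount of 1 the calls of Rspo4 (0.146), Fzd3 (0.411), Fzd2 (0.746), Mxd4 (0.487), Mxd1 (1.0), Lmo1 (0.0618) and Lmx1b (1.0) were lost.

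Genes of cell division made up the clearest group above both neighbours. All 35 tested genes of the mitosis list and 33 of 40 genes of the DNA replication list were in that class, beside 3.08% of all genes, and none of either list was in another class. The mitosis list had a median of 1.10 on the log2 scale against HFSC and 0.84 against basal HB, and the replication list 0.79 and 1.02, beside -0.05 and 0.04 over all genes. The summed level of the mitosis list was 6004 and 5606 CPM in ORS, 2274 to 2750 in HFSC and 3183 and 3243 in basal HB, and that of the replication list 4635 and 4403, 2323 to 2809, and 2251 and 2340. The other 7 replication genes, Gins2, Gins3, Gins4, Orc6, Pole2, Prim2 and Rfc2, were called above the neighbour mean and in no class. In bulk samples more cells in cycle and more RNA per cell cannot be told apart.

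Many of these calls were lost when a basal HB library was left out. That leaves the population a single library and changes the shared estimate of spread. Without basal HB 1 or 2, 8 or 12 mitosis genes and 16 or 19 replication genes were above both, and without ORS 1 there were 23 mitosis genes. Mki67, a protein of cycling cells, stood at 1056 and 1018 CPM in ORS, 308, 415 and 451 in HFSC and 569 and 529 in basal HB. Anln, which anchors the cleavage furrow, had 183 and 185 CPM in ORS, 67.6, 78.7 and 79.9 in HFSC and 87.2 and 89.0 in basal HB, and was 2.44-fold above HFSC and 2.09-fold above basal HB (adjusted p = 0.00173). Ect2, a protein needed for cytokinesis, had 126 and 112 CPM in ORS, 42.2, 50.5 and 42.1 in HFSC and 57.0 and 59.6 in basal HB (adjusted p = 0.00226). The centromeric histone Cenpa was at 149.5 and 136 CPM in ORS, 64.8, 74.1 and 70.6 in HFSC and 70.9 and 76.3 in basal HB (adjusted p = 0.0019). For each of these genes the ORS libraries lay close together and well above both neighbours. Anln, Ect2 and Cenpa kept their class in all 19 alternatives.

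Mcm5, a subunit of the replicative helicase, showed the same order, with 259 and 249.3 CPM in ORS, 104, 122 and 124 in HFSC and 120.1 and 121 in basal HB. It was 2.18-fold above HFSC and 2.11-fold above basal HB (adjusted p = 0.00173), and kept its class in all 19 alternatives. Orc1, which marks replication origins, had 17.3 and 16.0 CPM in ORS, 5.44, 8.59 and 6.91 in HFSC and 7.71 and 7.03 in basal HB and the widest change against HFSC in the list, 2.39-fold. Its adjusted p of 0.0115 was lost without ORS 1 (0.0517), basal HB 1 (0.0939) or basal HB 2 (0.111). The spindle motor Kif11 was at 246 and 221 CPM in ORS, 80.4, 107 and 100.6 in HFSC and 116 and 124 in basal HB (adjusted p = 0.00784). It left the class without basal HB 1 (0.0935) or basal HB 2 (0.0668).

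Promoters of 4 genes of these lists are shown to display the letters, and they were chosen because they hold them. Other named replication genes, Mcm10 and Dut, held no E2F letters. Each sequence holds the 160 bases before the annotated start, 5′ to 3′ on the strand of the gene, from RefSeq on GRCm38.p6. Capitals mark the E2F letters TTTCGCGC or TTTGGCGC, the CHR letters TTTGAA or TTCGAA and the box CCAAT. Both orientations were searched, so some appear as the complement read on the other strand. Mcm5 lies at chr8:75109349-75109508 (plus strand), Orc1 at chr4:108579294-108579453 (plus), Kif11 at chr19:37376222-37376381 (plus) and Ect2 at chr3:27153855-27154014 (minus, the first of 2 annotated starts).
Mcm5: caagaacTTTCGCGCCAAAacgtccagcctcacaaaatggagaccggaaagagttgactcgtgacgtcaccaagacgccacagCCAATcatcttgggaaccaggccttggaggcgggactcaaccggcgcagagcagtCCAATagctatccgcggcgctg
Orc1: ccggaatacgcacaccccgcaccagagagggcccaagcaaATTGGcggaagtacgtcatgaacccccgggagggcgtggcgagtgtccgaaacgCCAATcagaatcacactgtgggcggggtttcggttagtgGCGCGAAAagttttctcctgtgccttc
Kif11: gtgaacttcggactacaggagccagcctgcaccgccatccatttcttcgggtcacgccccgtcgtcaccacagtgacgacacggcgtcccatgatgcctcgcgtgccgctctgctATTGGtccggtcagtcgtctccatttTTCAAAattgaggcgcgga
Ect2: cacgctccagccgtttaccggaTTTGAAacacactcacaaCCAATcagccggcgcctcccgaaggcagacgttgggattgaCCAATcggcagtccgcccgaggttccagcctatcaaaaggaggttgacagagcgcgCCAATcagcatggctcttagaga

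In the Mcm5 window a pair of overlapping E2F matches began 153 and 149 bases before the start, and CCAAT boxes 77 and 22 bases before it. Orc1 held an E2F match 27 bases before the start, beside CCAAT boxes at 120 and 66. Kif11 held CHR letters at 19 and a CCAAT box at 45, and Ect2 CHR letters at 138 with CCAAT boxes at 120, 79 and 23. Over windows from 250 bases before to 50 after the start, E2F letters were in 10 of 34 promoters of replication genes above both neighbours (29.4%) and in 3.2% of those of the mitosis genes. CHR letters were in 26 of 31 mitosis promoters (83.9%) and in 14.7% of the replication promoters. CCAAT boxes were in 80.6% and 55.9%. Promoters of all genes tested held the letters in 1.3% (E2F), 14.4% (CHR) and 37.1% (CCAAT), and all promoters of the table in 0.8%, 19.2% and 37.4%.

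The whole class above both neighbours held more of these letters than the class below. E2F letters were in 6.2% of its 592 promoters, CHR letters in 26.7% and CCAAT boxes in 46.8%, and outside the replication and mitosis lists the shares were 4.9%, 24.1% and 44.2%. In the 583 promoters of genes below both the shares were 1.0%, 14.8% and 36.7%. The E-box CACGTG, read by MYC proteins, was in 9.3% of both classes beside 9.1% of genes tested, and TAATTA, a core read by homeodomain proteins such as LHX2, in 2.0% and 2.9% beside 3.0%. A match of letters is not a bound site, short letters match by chance, and the table held promoters for 495 of the 631 genes above, 428 of the 591 below, 29 of 33 replication and 28 of 35 mitosis genes.

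**Figure D3:**
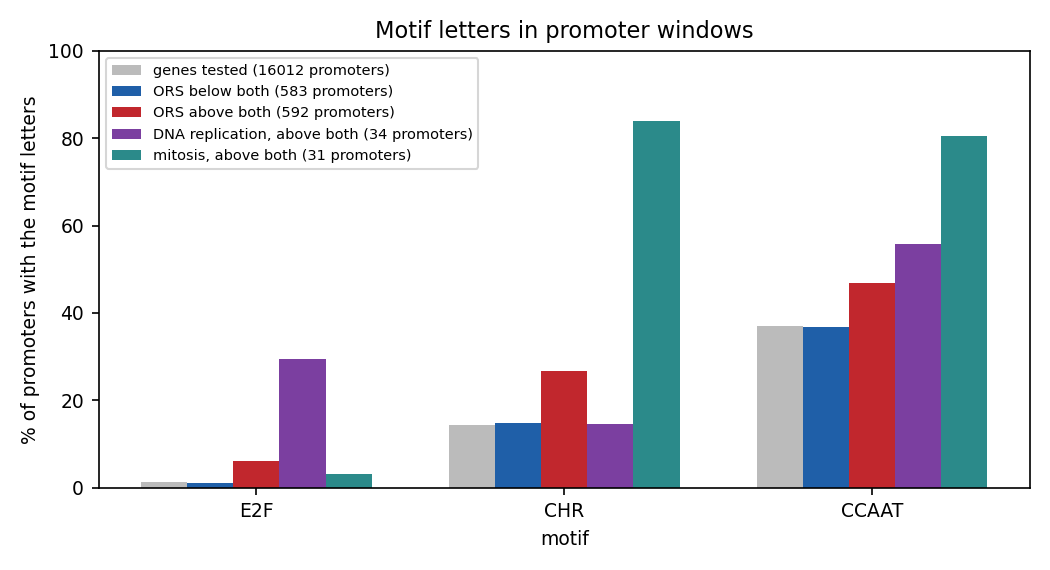
Share of promoter windows (in %, from 250 bases before to 50 after the start) that hold E2F, CHR or CCAAT letters on either strand, for 5 sets of genes. Replication promoters stand out for E2F letters (29.4%) and mitosis promoters for CHR letters (83.9%).

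Lists that accompany growth and S phase were above both neighbours in part. Of 21 G1 cyclins, E2F and retinoblastoma family genes, 6 were in the class, beside 3.08% of all genes: Ccne1, Ccne2, E2f1, E2f8, Tfdp1 and Rbl1. The summed level of this list was 2769 and 2592 CPM in ORS and about the same, 2729 and 2770, in suprabasal HB. E2f1, an activator of replication genes, stood at 59.0 and 59.3 CPM in ORS, 24.3, 29.0 and 27.4 in HFSC and 26.0 and 25.5 in basal HB (adjusted p = 0.00173). Cyclin E1 (Ccne1), which starts S phase, stood at 28.4 and 31.2 CPM in ORS, 13.4, 15.5 and 15.3 in HFSC and 15.6 and 16.1 in basal HB (adjusted p = 0.0027). Both kept their class in all 19 alternatives, while the list held 2 such genes without either basal HB library. Ccne2 was lost without ORS 1 (0.0692), ORS 2 (0.063), basal HB 1 (0.143) or basal HB 2 (0.121), and Tfdp1 without ORS 1 (0.0586), basal HB 1 (0.139) or basal HB 2 (0.0712). Of 25 genes of nucleotide and one-carbon metabolism, 10 were above both and 21 above the neighbour mean, beside 3.08% and 14% of all genes. The summed level of these genes was 2930 and 2984 CPM in ORS and 2439 and 2705 in suprabasal HB. Ppat, the first enzyme of purine synthesis, was at 70.8 and 70.4 CPM in ORS, 22.05, 31.2 and 27.1 in HFSC and 30.2 and 32.6 in basal HB (adjusted p = 0.00253), and it kept its class in all 19 alternatives. The list had 5 members without ORS 2 and 1 or 3 without basal HB 1 or 2.

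Of 32 ribosome biogenesis genes 25 were above the neighbour mean and 11 above both, beside 14% and 3.08% of all genes. The summed level of the list was 5991 and 6064 CPM in ORS and 5471 and 6505 in suprabasal HB. As a list it was therefore not highest in ORS alone. Among these Nop56, a core protein of box C/D particles, was at 269.5 and 276 CPM in ORS, 152, 171 and 175 in HFSC and 169 and 177 in basal HB (adjusted p = 0.00632; 0.0845 and 0.0573 without basal HB 1 and 2). The list had 0 genes above both without basal HB 1 or basal HB 2, 1 without ORS 2, 5 without ORS 1 and 4 without HFSC 3. Of 22 chromatin and DNA methylation genes, Hells, Dnmt1, Ezh2 and Eed were above both and Kdm5b was below both, beside 3.08% and 2.88% of all genes. Dnmt1 was lost without basal HB 1 (0.0617) or basal HB 2 (0.0563), and Ezh2 without ORS 1 (0.058), basal HB 1 (0.0953) or basal HB 2 (0.101). Eed was lost without any library of the 3 populations (up to 0.329) and Kdm5b without all of them but ORS 2 and without suprabasal HB 2 (0.0571 to 0.168). Hells, a remodelling ATPase needed for DNA methylation, was at 200.01 and 183 CPM in ORS, 71.9, 101.05 and 81.0 in HFSC and 82.5 and 83.3 in basal HB (adjusted p = 0.00281) and kept its class in all 19 alternatives. Of 7 CDK inhibitors, 1 was above both and 1 below both, beside 3.08% and 2.88% of all genes. Cdkn2c was above both at 69.7 and 61.8 CPM in ORS, 26.0, 27.9 and 26.5 in HFSC and 42.1 and 44.7 in basal HB (adjusted p = 0.00546, 0.0763 without basal HB 1). Cdkn2b, of the same family, was below both at 4.07 and 3.51 CPM in ORS, 8.74, 11.3 and 7.02 in HFSC and 37.6 and 45.5 in basal HB (adjusted p = 0.0211), a call lost without HFSC 1 (0.0658), HFSC 2 (0.0578), ORS 2 (0.139), basal HB 1 (0.0589) or basal HB 2 (0.0644). On TPM with a pseudocount of 1 Cdkn2b (0.0959) and Kdm5b (0.182) were lost, and Eed was lost with DESeq2 size factors (0.0616).

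**Figure D4:**
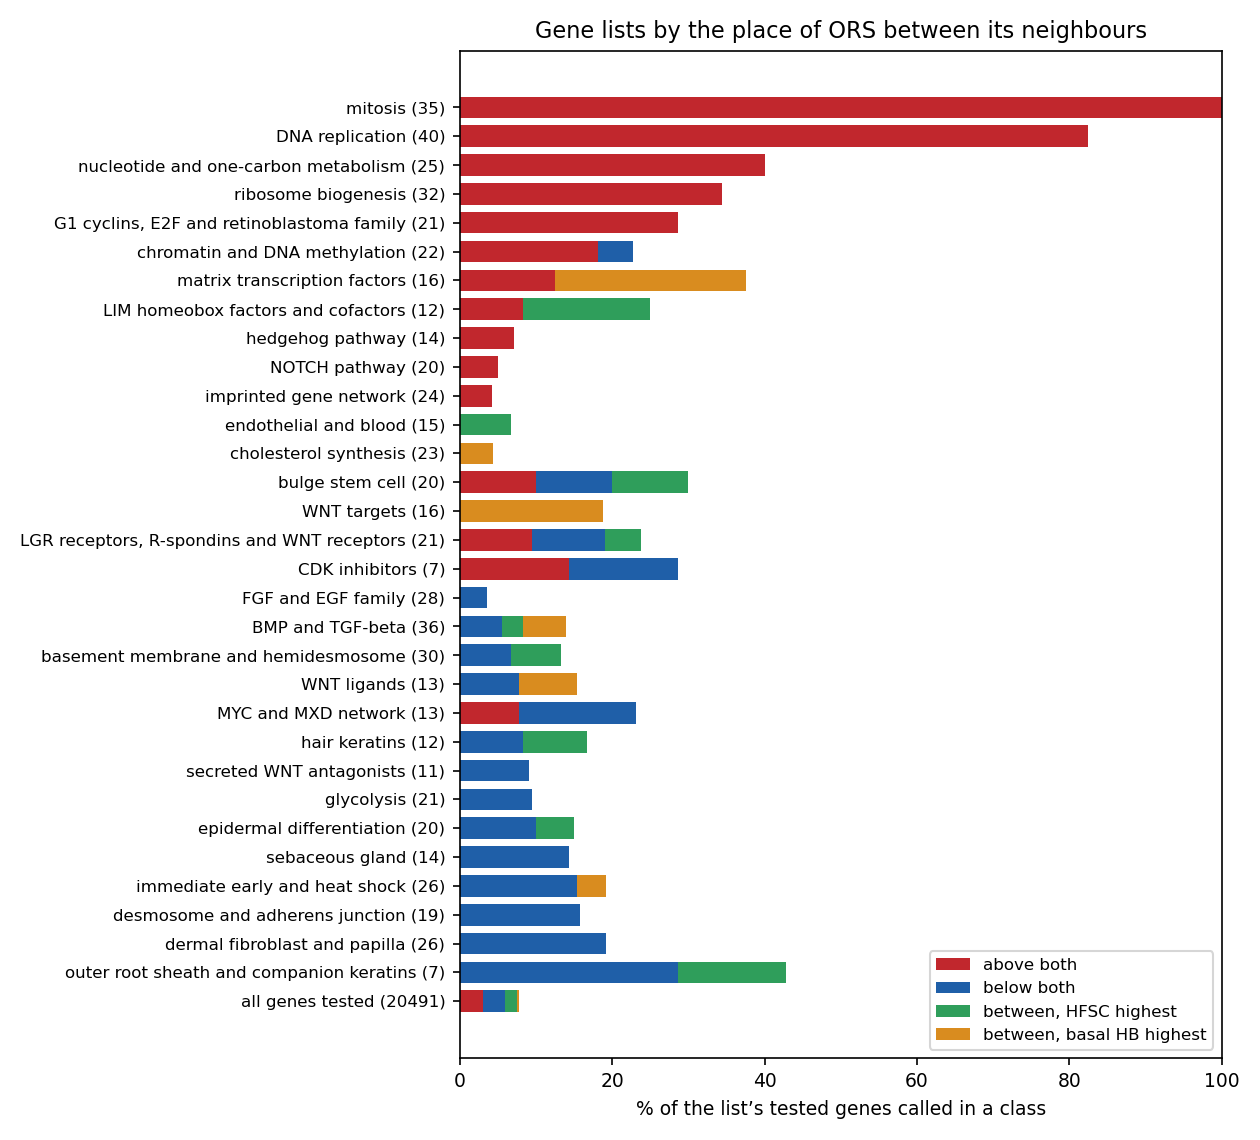
Bars give the share of each list's tested genes called in a class, in %, with the number tested in brackets. Colours mark genes above both neighbours (red), below both (blue), between with HFSC highest (green) or between with basal HB highest (orange). Lists with no called gene are left out, as are the lists of the 4 markers, the sort markers and the sex-linked genes. The mitosis list is red throughout (35 of 35), beside 3.08% red among all genes tested.

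The genes furthest above both neighbours were Lgr6 and Mycl, then Arhgef26, Has2, Adamts9, Galnt2, Camk1d, Sox5, Ccnb1ip1 and Hopx, ranked by the smaller of the 2 changes among autosomal protein-coding members with at least 5 CPM in 1 of the 3 populations. Has2, which makes hyaluronan, the large sugar of the pericellular matrix, stood at 18.1 and 18.5 CPM in ORS, 5.77, 4.47 and 6.47 in HFSC and 3.62 and 3.76 in basal HB. It was 3.29-fold above HFSC and 4.96-fold above basal HB (adjusted p = 0.00308). Galnt2, which starts mucin-type O-glycosylation, had 146 and 159 CPM in ORS, 32.8, 31.6 and 31.6 in HFSC and 46.4 and 55.0 in basal HB, with 4.76-fold and 3.01-fold higher levels (adjusted p = 0.00173). The transcription factor Sox5 was at 66.2 and 82.8 CPM in ORS, 25.2, 24.9 and 25.9 in HFSC and 13.5 and 15.2 in basal HB. Arhgef26 was at 9.88 and 11.6 CPM in ORS, 3.05, 3.15 and 3.02 in HFSC and 3.39 and 2.69 in basal HB. In these 4 genes the ORS libraries lay near each other and at least 2-fold above each neighbour mean, and all 4 kept their class in all 19 alternatives.

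Adamts9, a secreted metalloproteinase that cleaves proteoglycans, reached 58.4 and 79.1 CPM in ORS, 10.5, 12.5 and 13.6 in HFSC and 20.7 and 23.9 in basal HB (adjusted p = 0.0167), lost without ORS 2 (0.0895), basal HB 1 (0.164) or basal HB 2 (0.105). Hopx, a homeodomain-only protein also used as a bulge marker, was at 109.9 and 70.9 CPM in ORS, 17.0, 31.4 and 26.4 in HFSC and 31.7 and 32.6 in basal HB (adjusted p = 0.0181). Its call was lost without HFSC 3 (0.0502), ORS 1 (0.0839), basal HB 1 (0.155) or basal HB 2 (0.125), and it reached 128 and 95.3 in suprabasal HB. The kinase Camk1d (adjusted p = 0.0249; 0.058, 0.101, 0.179 and 0.169 without ORS 1, ORS 2, basal HB 1 and basal HB 2; 0.0919 on TPM with a pseudocount of 0.1) and Ccnb1ip1 (adjusted p = 0.00877; 0.111 and 0.0592 without basal HB 1 and 2) were 3.26-fold and 2.81-fold above HFSC. Of 14 hedgehog and 20 NOTCH genes 1 each was in the class, close to the 3.08% of all genes, so these are single genes and no result about either pathway. Ptch1, the hedgehog receptor and itself a target of the pathway, was at 521 and 515 CPM in ORS, 294, 240.4 and 327 in HFSC and 228 and 204 in basal HB (adjusted p = 0.0125). This call was lost without either ORS library (0.0572 and 0.0557) or either basal HB library (0.0581 and 0.0567). Gli1, another hedgehog target, was in no class, with 244 and 259 CPM in ORS, 287, 211 and 249.5 in HFSC and 97.3 and 96.0 in basal HB. Nrarp, a feedback gene of NOTCH, was at 123 and 148 CPM in ORS, 71.3, 93.3 and 74.2 in HFSC and 72.4 and 80.2 in basal HB (adjusted p = 0.0133; 0.0861, 0.143 and 0.0772 without ORS 2, basal HB 1 and basal HB 2). Dlx1 and Cux1, chosen after their values were seen, are the 2 of 16 matrix transcription factors above both, beside 3.08% of all genes. Their calls were not followed through the alternatives. Dlx1 had 65.3 and 76.6 CPM in ORS, 29.6, 27.2 and 28.8 in HFSC and 20.4 and 23.3 in basal HB, and Cux1 had 1018 and 1564 CPM in ORS, 485, 455 and 577 in HFSC and 364 and 399.6 in basal HB.

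Genes below both neighbours came from lists in smaller shares than in the cell cycle lists. They included 2 of 7 keratins of the sheath and companion layer, 5 of 26 genes of dermal fibroblasts and papilla, 4 of 26 immediate early and heat shock genes, 3 of 19 genes of desmosomes and adherens junctions and 2 of 13 of the MYC and MXD network, beside 2.88% of all genes. Ranked as above, the class was led by Mup10, Calcr, Gdf10, Plekhb1, Mmp2, Coch, Susd2, Prelp, Tmem182 and Apod. Mup10 belongs to a large family of near-identical genes, so its reads are uncertain.

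Calcr, the calcitonin receptor, stood at 0.148 and 0.268 CPM in ORS, 4.10, 6.38 and 4.94 in HFSC and 1.85 and 1.95 in basal HB, 24.0-fold lower than HFSC and 8.89-fold lower than basal HB (adjusted p = 0.00515). Mmp2, a secreted protease that digests collagen, was at 6.97 and 5.05 CPM in ORS, 45.6, 38.1 and 49.7 in HFSC and 49.5 and 49.7 in basal HB (adjusted p = 0.00127), with log2 changes of -2.89 (SE 0.23) and -3.05 (SE 0.24). Coch, an extracellular matrix protein, had 0.502 and 0.380 CPM in ORS, 2.94, 3.94 and 2.65 in HFSC and 22.2 and 24.6 in basal HB (adjusted p = 0.00348). For all 3 the ORS libraries were far under both neighbours, and for Coch basal HB was also above HFSC. Susd2 was at 2.95 and 1.54 CPM in ORS, 13.1, 13.6 and 17.5 in HFSC and 18.4 and 19.99 in basal HB (adjusted p = 0.00665). The lipocalin Apod was at 5.06 and 2.15 CPM in ORS, 22.4, 16.8 and 23.8 in HFSC and 61.5 and 62.3 in basal HB (adjusted p = 0.00855). These 5 genes kept their class in all 19 alternatives. Others did not: Gdf10 (adjusted p = 0.0364) had 0.065 to 0.172 without any single library of the 3 populations other than ORS 1, and 0.0647 on TPM with a pseudocount of 0.1. Plekhb1 had 0.07 without ORS 2 and 0.0553 without basal HB 2, Prelp 0.0577 without ORS 2, and Tmem182 and Mup10 0.0501 and 0.0506 without basal HB 2.

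**Figure D5:**
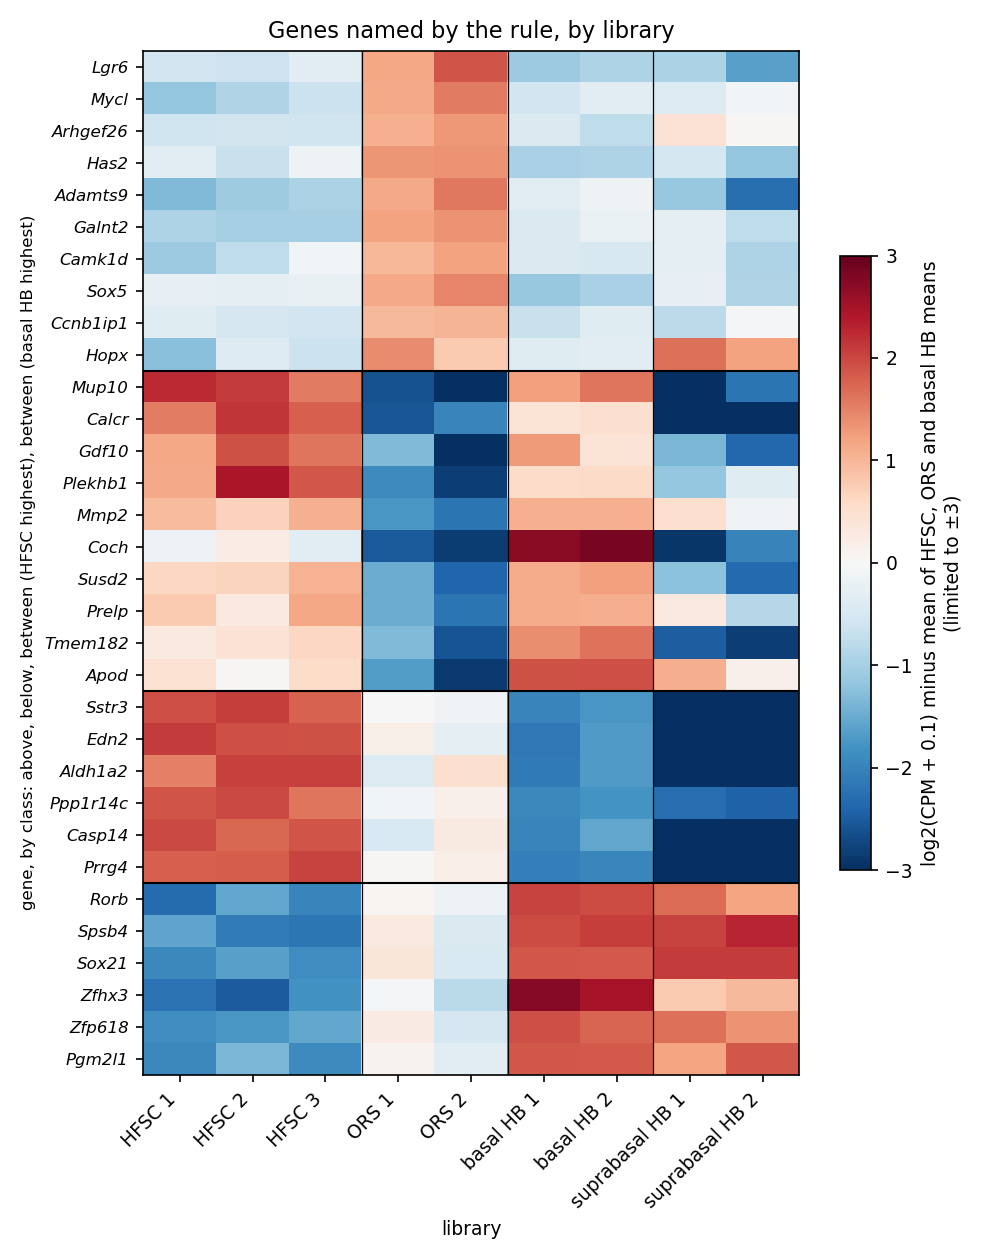
Levels of the genes named by rank in each of 9 libraries, as log2(CPM + 0.1) minus the mean over HFSC, ORS and basal HB, with the colour limited to ±3. The first 10 rows are red in ORS alone or nearly so, the next 10 are blue in ORS, and in the last 12 ORS is near white between the neighbours; Hopx is also red in suprabasal HB.

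Part of this class is known from dermal cells, and the marker list of that cell type moved with it. Of 26 dermal fibroblast and papilla genes, 5 were below both neighbours (Sparc, Acta2, Pdgfra, Pdgfrb and Corin), beside 2.88% of all genes. Below the neighbour mean were 14, beside 16.7% of all genes, and Dcn was above it. The summed level of the list was 2356 and 1523 CPM in ORS, 3579 to 5413 in HFSC and 4138 and 3829 in basal HB, and none of the 26 was at 0 in ORS. Sparc, a collagen-binding matrix protein, had 262 and 229 CPM in ORS, 811, 726 and 852 in HFSC and 561 and 612 in basal HB (adjusted p = 0.00583) and kept its class in all 19 alternatives. Acta2, smooth muscle actin, had 240.0 and 210.1 CPM in ORS, 1356, 840.3 and 1148 in HFSC and 498 and 585 in basal HB (adjusted p = 0.0287). Dcn went the other way, with 474 and 243 CPM in ORS, 156, 179 and 198 in HFSC and 135 and 131 in basal HB. The part of dermal RNA in the levels of Mmp2, Prelp, Apod and other genes of the class was not tested. The count of 5 ran from 1 without HFSC 3, ORS 2, basal HB 1 or basal HB 2 and 2 without HFSC 1 to 10 without ORS 1, and Acta2 had 0.0581 to 0.161 without HFSC 3 or either library of ORS or basal HB. Pdgfra was lost without HFSC 1 (0.109), HFSC 3 (0.113), ORS 2 (0.17), basal HB 1 (0.0705) or basal HB 2 (0.0795). Pdgfrb was lost without HFSC 1 (0.124), HFSC 3 (0.14), ORS 2 (0.225), basal HB 1 (0.0935), basal HB 2 (0.104) or suprabasal HB 2 (0.0672). Corin was lost without HFSC 1 (0.148), HFSC 2 (0.124), HFSC 3 (0.108), ORS 2 (0.149), basal HB 1 (0.109) or basal HB 2 (0.117). On TPM with a pseudocount of 1 Acta2 (0.106), Pdgfra (0.265), Pdgfrb (0.604) and Corin (0.174) were lost.

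Lists of other cell types were read in the same way. No gene of the melanocyte list (14 tested), the immune cell list (15) or the inner root sheath list (14) was in any class, which for lists of this length is close to the 7.72% of all genes. Their summed levels in ORS were 571 and 168 CPM for melanocytes, beside 207 to 284 in HFSC and 4566 and 4185 in basal HB, and 1681 and 1145 CPM for the inner root sheath, beside 930 to 1303 and 5844 and 6315. The immune list summed to 194 and 123 CPM in ORS, 143 to 164 in HFSC and 267 and 277 in basal HB. The melanocyte enzyme Dct was at 108 and 19.97 CPM in ORS, so ORS 1 held more of it than ORS 2. Comparisons with basal HB thus include an offset in both lists, and their part in single genes was not tested. Of 15 endothelial and blood genes Tek was between with HFSC highest, beside 1.59% of all genes. Its call was lost without HFSC 1 (0.104), HFSC 2 (0.0855), HFSC 3 (0.11), ORS 2 (0.182), basal HB 1 (0.235) or suprabasal HB 2 (0.0664). Of 14 sebaceous genes Plin2 and Cidea were below both, beside 2.88% of all genes. On TPM the calls of Tek (0.291 and 0.282 with pseudocounts of 1 and 0.1) and Cidea (0.0838 with 1) were lost. Plin2, a coat protein of lipid droplets, had 26.6 and 33.0 CPM in ORS, 57.2, 55.7 and 54.8 in HFSC and 76.1 and 86.0 in basal HB (adjusted p = 0.00977) and kept its class in all 19 alternatives. Cidea was under 1 CPM in every library and lost its call without any library of the 3 populations (up to 0.315).

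Further genes below both neighbours came from several lists. Hk1, the housekeeping hexokinase, stood at 7.78 and 7.64 CPM in ORS, 25.4, 20.8 and 25.4 in HFSC and 20.5 and 20.7 in basal HB (adjusted p = 0.00188). With Aldoa it was 1 of 2 glycolysis genes of 21 in the class, beside 2.88% of all genes. The call of Aldoa was lost without ORS 2 (0.0523) or basal HB 2 (0.0733). Fgf18, a growth factor of the bulge, was low in ORS at 0.133 and 0.0782 CPM, where 3 counts are worth 0.0465 and 0.0339, and had 1.27, 1.11 and 0.909 in HFSC and 1.59 and 1.98 in basal HB (adjusted p = 0.00265). Spink5, a protease inhibitor of differentiating epidermis, was at 0.236 and 0.224 CPM in ORS, 1.45, 1.28 and 1.16 in HFSC and 2.33 and 2.498 in basal HB (adjusted p = 0.00284). Ier3, a gene induced early by stress and growth signals, was at 19.2 and 18.3 CPM in ORS, 57.4, 68.6 and 59.4 in HFSC and 45.6 and 43.6 in basal HB (adjusted p = 0.00583). Hk1, Fgf18, Spink5 and Ier3 kept their class in all 19 alternatives. Both Fgf18 and Foxc1, the latter chosen after its values were seen, are genes of the bulge list that lay below both. The call of Foxc1 was not followed through the alternatives.

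Fos, the immediate early transcription factor, was also in the class, at 204 and 246 CPM in ORS, 589.7, 685 and 702 in HFSC and 479.6 and 449 in basal HB (adjusted p = 0.0388). It had 0.0642 to 0.172 without any 1 of the 7 libraries of the 3 populations. Hspb1, a small heat shock protein, had 0.0533 and 0.0644 without basal HB 1 and 2, and Klf6 0.0536 to 0.193 without HFSC 2, HFSC 3 or any library of ORS or basal HB. Genes of this list also respond to the handling of tissue. Its summed level was 3943 and 4367 CPM in ORS, 6449 to 7899.9 in HFSC and 5598 and 5245 in basal HB, and the part of handling in these values was not tested. Dsg3, Dsc2 and Pkp1, proteins of the desmosome, fell below both neighbours. Dsg3 stood at 71.0 and 65.2 CPM in ORS, 104, 129.9 and 114 in HFSC and 250.3 and 239 in basal HB (adjusted p = 0.00665; 0.0513 without ORS 2). Dsc2 had 10.8 and 8.73 CPM in ORS, 26.8, 19.4 and 21.4 in HFSC and 23.6 and 24.3 in basal HB (adjusted p = 0.00817; 0.0573 without ORS 2 and 0.053 without basal HB 2). Pkp1 had 137 and 104 CPM in ORS, 190.1, 261 and 247 in HFSC and 244 and 247 in basal HB (adjusted p = 0.0121; 0.06 to 0.0879 without HFSC 3, ORS 2, basal HB 1 or basal HB 2). Lama3 and Lamc1, laminin chains of the basement membrane, were the 2 of 30 genes of that list below both, beside 2.88% of all genes. Lama3 had 85.8 and 96.3 CPM in ORS, 246, 221 and 254 in HFSC and 179.5 and 177 in basal HB (adjusted p = 0.0121; 0.0658 and 0.0664 without basal HB 1 and 2). Lamc1 had 212 and 223 CPM in ORS, 416, 371 and 444 in HFSC and 338 and 343 in basal HB (adjusted p = 0.0231; above 0.05, at most 0.128, without either library of ORS or basal HB). On deposited TPM the calls of Dsg3, Dsc2, Pkp1, Lama3, Lamc1, Fos, Hspb1 and Klf6 were also lost, while none of these genes changed direction.

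Of the secreted WNT antagonists (11 tested) 8 were below the neighbour mean, beside 16.7% of all genes, and 1, Sfrp4, was below both, beside 2.88%. It stood at 1.48 and 0.950 CPM in ORS, 6.89, 4.16 and 6.94 in HFSC and 6.90 and 5.67 in basal HB (adjusted p = 0.00699; 0.0572 on TPM with a pseudocount of 1). The summed level of the list was 185 and 95.2 CPM in ORS, 954 to 981 in HFSC and 439 and 442 in basal HB. ORS thus held the lowest sum of the 3 populations without most members passing against both. The Wnt2 ligand was below both at 0.266 and 0.168 CPM in ORS, 1.96, 1.02 and 2.73 in HFSC and 1.94 and 2.29 in basal HB (adjusted p = 0.00859). It was lost without ORS 2 (0.07), with limma-voom (0.0507) and on TPM with pseudocounts of 1 and 0.1 (0.181 and 0.0548). Of 36 BMP and TGF-beta genes, Smad1 and Tgfbi were below both, Inhbb between with HFSC highest, and Smad6 and Smad7 between with basal HB highest. Hsd17b7 alone was called among 23 genes of cholesterol synthesis (basal HB highest), and Krt31 (below both) and Krt32 (HFSC highest) among 12 hair keratins. Beside these lists, 7.72% of all genes were in a class. Each of Smad1, Tgfbi, Smad6, Hsd17b7, Krt31 and Krt32 lost its call without at least 1 library, where the highest adjusted p-values were 0.11, 0.165, 0.274, 0.3, 0.0819 and 0.139. All 6 were also lost on TPM, with adjusted p-values of 0.0568 (Krt32) to 0.919 (Smad1), as were Inhbb (0.357) and Smad7 (0.581). The lists of the IGF axis (15 genes) and oxidative phosphorylation (24) had no gene in any class, and no oxidative phosphorylation gene was called by the contrast. The contrast called 14% of all genes higher and 16.7% lower.

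Between its neighbours, ORS followed a descending order from HFSC in 325 genes. The bulge stem cell list had a median of -0.83 on the log2 scale against HFSC and 1.05 against basal HB over 20 genes. Of these 2 lay between with HFSC highest, 2 above both and 2 below both, beside 1.59%, 3.08% and 2.88% of all genes. Ppp1r14c, an inhibitor of protein phosphatase 1, stood at 258, 275 and 213 CPM in HFSC, 66.4 and 78.2 in ORS and 18.1 and 20.1 in basal HB. Prrg4, a membrane protein with a Gla domain, had 7.96 and 8.99 CPM in ORS, 27.1, 27.7 and 32.0 in HFSC and 1.79 and 1.93 in basal HB. Both kept their class in all 19 alternatives (adjusted p = 0.00168 and 0.00293), and the steps to HFSC and to basal HB were 3.44-fold and 3.79-fold for Ppp1r14c and 3.41-fold and 4.55-fold for Prrg4. The contrast gave them 0.07 and 0.21 on the log2 scale and did not call them. Edn2, a peptide ligand of the endothelin receptors, stood at 24.7 and 17.7 CPM in ORS, 93.1, 84.1 and 83.0 in HFSC and 4.86 and 6.65 in basal HB (adjusted p = 0.00475; 0.0566 without basal HB 1). Sstr3, a somatostatin receptor, had 2.82 and 2.65 CPM in ORS, 11.2, 12.3 and 9.92 in HFSC and 0.655 and 0.788 in basal HB (adjusted p = 0.00478; 0.0656 without basal HB 1). Aldh1a2, which makes retinoic acid, and Casp14, a caspase of cornifying cells, had adjusted p = 0.0232 and 0.033, lost without any 1 of the 7 libraries compared, with highest values of 0.17 and 0.266. On TPM with a pseudocount of 1 Sstr3 (0.0568), Aldh1a2 (0.134) and Casp14 (0.125) were lost.

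Where the steps were unequal, the contrast called the gene although ORS lay between. Sox9, a transcription factor needed by bulge stem cells, had 152, 129 and 129.8 CPM in HFSC, 17.5 and 15.7 in ORS and 7.46 and 7.45 in basal HB, and a contrast of -0.94 (SE 0.17) (adjusted p = 0.00369). ORS was thus below the mean and still 2.23-fold above basal HB. Barx2, a homeodomain factor, had 34.8 and 19.9 CPM in ORS, 272, 279.9 and 256 in HFSC and 9.50 and 10.1 in basal HB. Inhbb, the activin B subunit, had 33.1 and 35.2 CPM in ORS, 221, 192 and 162 in HFSC and 20.98 and 22.1 in basal HB. Il20rb, a cytokine receptor chain, had 7.90 and 9.27 CPM in ORS, 53.4, 51.9 and 46.7 in HFSC and 4.98 and 4.51 in basal HB. In each gene the step from HFSC to ORS was wider than that from ORS to basal HB. The genes were named for the largest contrasts, so unequal steps follow from the choice. The adjusted p-values of the class were 0.0198 for Sox9, 0.0192 for Barx2, 0.0359 for Inhbb and 0.0182 for Il20rb. They rose above 0.05 without any single library of HFSC or basal HB and, for 2 of them each, without ORS 1 or ORS 2, except that Inhbb held without HFSC 1 and 3 and was also lost without suprabasal HB 2 (0.0697). The highest values, 0.161, 0.165, 0.262 and 0.115, came without basal HB 1 (basal HB 2 for Il20rb). All 4 were lost on TPM with pseudocounts of 1 and 0.1, Sox9 at 0.138 and 0.282, Barx2 at 0.0891 and 0.141, Inhbb at 0.357 and 0.351, and Il20rb at 0.232 and 0.196. Of the contrast's 3415 lower genes, 34 had this pattern.

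The opposite order, rising from HFSC through ORS to basal HB, held in 35 genes, 4 of them among 16 matrix transcription factors and 3 among 16 WNT targets, beside 0.171% of all genes. Axin2, the feedback inhibitor that reads out WNT signalling, stood at 12.8, 13.4 and 16.3 CPM in HFSC, 46.5 and 33.9 in ORS and 127 and 119.9 in basal HB (adjusted p = 0.0135). Lef1, the transcription factor that carries this signal in the matrix and a member of both lists, went from 22.6, 25.4 and 29.6 over 98.8 and 53.8 to 268 and 240.1 (adjusted p = 0.0313). Msx1, a homeodomain factor of the matrix, went from 20.7, 19.9 and 20.9 over 61.9 and 45.4 to 139.5 and 153 (adjusted p = 0.0194). As in every member of a class, ORS overlapped neither neighbour in Axin2, Lef1 or Msx1. In all 3, ORS 1 was nearer to basal HB than ORS 2. The ligand Wnt4 had 106 and 99.8 CPM in ORS, 32.9, 37.3 and 39.5 in HFSC and 238 and 266 in basal HB (adjusted p = 0.0271). Smad7, an inhibitor of BMP and TGF-beta signals, had 38.2 and 38.1 CPM in ORS, 25.9, 24.7 and 24.3 in HFSC and 147 and 148 in basal HB (adjusted p = 0.0194).

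By the same ranking the class was led by Rorb, Spsb4, Sox21, Zfhx3, Zfp618 and Pgm2l1. Rorb, a nuclear receptor, had 0.326, 0.620 and 0.436 CPM in HFSC, 2.13 and 1.82 in ORS and 8.58 and 8.21 in basal HB (adjusted p = 0.0271). Sox21, needed for hair cuticle formation, had 39.5 and 22.1 CPM in ORS, 7.87, 9.79 and 8.29 in HFSC and 112 and 109.8 in basal HB (adjusted p = 0.0271). This class was the least stable: 2 genes were called without either basal HB library, 7 without ORS 1 and 10 to 22 without 1 HFSC library, and none of the 16 genes named from it kept its call in all alternatives. Axin2 and Msx1 were lost without basal HB 1 (0.112 for each) or basal HB 2 (0.103 and 0.125) and held without any other single library. Their calls were also lost with the replicate block. Lef1 (0.07 to 0.209), Sox21 (0.0594 to 0.133), Rorb (0.061 to 0.167) and Wnt4 (0.0518 to 0.167) also lost their calls without at least 1 library of HFSC or ORS. The same holds for Spsb4 (0.0673 to 0.15), Zfhx3 (0.062 to 0.133), Zfp618 (0.0651 to 0.125), Pgm2l1 (0.061 to 0.191) and Smad7 (0.101 to 0.112). On TPM with a pseudocount of 1 Rorb (0.286), Spsb4 (0.0805), Zfhx3 (0.21), Zfp618 (0.0708) and Smad7 (0.581) were lost, and with limma-voom Lef1 (0.0636), Sox21 (0.0636) and Pgm2l1 (0.0976).

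The means of suprabasal HB set no class, although its libraries entered the fit. Members were selected on the levels of the other 3 populations, which sets in part where another mean falls, so the following shares only describe them. In genes with ORS above both neighbours, the suprabasal HB mean was itself above both in 545 of 631 (86.4%) and above ORS in 48 (7.6%). In genes below both, it was under both neighbours in 398 of 591 (67.3%) and above ORS in 77.7%. Mcm5 is an example of the first kind, with 201.5 and 196 CPM in suprabasal HB, and Anln is an exception, with 86.3 and 84.1 CPM, level with basal HB. Genes with HFSC highest were lower in suprabasal HB than in both neighbours in 74.8%, and 97.1% of genes with basal HB highest were higher there than in ORS. ORS was therefore the highest of all 4 population means in all but 48 of the genes above both, and the lowest of all 4 in 77.7% of the genes below both.

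Libraries also differed in ways the populations do not explain. Y-linked Ddx3y was at 0, 0 and 0.0364 CPM in HFSC and 93.1 and 51.7 in ORS. Xist, the RNA of the inactive X, was at 1.11 and 1459 CPM in ORS, so the sex of the animals differed between HFSC and ORS and between the ORS libraries. The classes held 16, 16, 16 and 0 X-linked genes and no Y-linked gene. In 195 genes all HFSC libraries were at 0, of which the contrast called 70 higher and no class held any. Population, sex and depth cannot be told apart in the HFSC comparison. On deposited TPM the median of ORS minus HFSC was 0.13 or 0.22 (pseudocount 1 or 0.1) in place of -0.05, and of the genes outside both neighbours 78.9% or 77.9% lay above, in place of 51.6%. Of the genes called by the contrast 55.7% or 56.7% were higher, in place of 45.6%.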

How the data were processed

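RNA-seq of 9 libraries sorted from mouse back skin was analysed, and the groups come from the sample labels. The deposited values are RSEM expected counts per gene and TPM made by the authors, and per the submitters' processing notes Bowtie2 2.2.9, RSEM 1.2.30 and mm10 were used, with a poly(A) library kit and paired-end reads per the labels' protocols. Settings of these tools and strand handling are not given in the sources used here. Expected counts split reads between near-identical genes by estimate, so values of gene families are uncertain.

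The deposited expected counts were rounded, genes of low count were removed (filterByExpr), and libraries were scaled by TMM in edgeR 4.0.16 (R 4.3.3). A quasi-likelihood fit of 4 population means over all 9 libraries left 5 residual degrees of freedom, since its spread is shared. Contrasts were ORS minus HFSC, ORS minus basal HB and ORS minus their mean. The adjusted p of a gene's class is the larger of its 2 one-sided edgeR p-values with Benjamini-Hochberg adjustment over all genes tested, and every call uses 0.05. Standard errors were taken from the log2 change and its F statistic (absolute change over root F). The fit was also run on counts simulated from its own estimates of spread, and no result here rests on that run.

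Members, markers and the 39 gene lists were chosen with earlier results of these data known. Named genes are the 4 markers, the first 10 genes of each outside class and the first 6 of each between class in the ranking given, up to 4 members per list (all where a list has 5 or fewer in a class), and the 4 genes with the largest contrast within the between classes. Alternatives used DESeq2 1.42.0, limma 3.58.1 on log2(TPM + 1) and log2(TPM + 0.1), other scalings and filters, a replicate block, and each library left out in turn. Promoters and their letters come from RefSeq, GRCm38.p6, matched by symbol.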

Additional observations from a re-analysis of the deposited data

How the results depend on the processing

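None of the 119 named genes with a class changed the sign of its log2 change against HFSC or basal HB under any alternative. Genes shown beside them, such as Gli1, Lgr5, Mycn and Mki67, were not followed through the alternatives. The balance of calls did turn. Against HFSC it went from 3703 higher and 4873 lower to 4350 and 4320 with upper-quartile scaling, and of the genes outside both neighbours 30.8% lay above without basal HB 1 and 33.6% without ORS 1, in place of 51.6%. DESeq2's Wald test put 983 genes above both, 1012 below both, 597 between with HFSC highest and 165 with basal HB highest. Adjusting each 2-sided test alone gave 1126, 1109, 790 and 297, and a fold of at least 2 against each neighbour kept 98, 285, 153 and 20. On TPM with a pseudocount of 1 or 0.1, 5991 or 5982 genes were higher and 2756 or 2712 lower than HFSC, 166 or 161 were below both and 41 or 33 between with HFSC highest, and with a pseudocount of 1 there were 53 with basal HB highest. Without the low-count filter 99 genes had basal HB highest.

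With 1 library left out, the contrast called 1602 to 3138 higher and 1989 to 3446 lower genes, the comparison with HFSC 2812 to 4413 higher and 3583 to 4800 lower, and that with basal HB 1330 to 2976 higher and 2095 to 3557 lower. The classes held 105 to 631 genes above both, 172 to 634 below both, 12 to 342 with HFSC highest and 2 to 51 with basal HB highest. All 105 genes above both without basal HB 1 were in the class with all libraries. Of 119 named genes with a class, 28 kept the call in all 19 alternatives.

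With the replicate block the classes held 435, 363, 80 and 1 genes. It took the calls of Lhx2, Adamts9, Hopx and Eed (above both) and of all 16 genes named with basal HB highest. Below both it took those of Krt16, Krt17, Gdf10, Tmem182, Fos, Klf6, Pkp1, Kdm5b, Fzd3, Mxd1, Pdgfrb, Tgfbi, Krt31 and Cidea. With HFSC highest it took those of Cd34, Sox9, Barx2, Il20rb, Inhbb, Casp14, Krt32, Tek, Fzd2, Lmo1 and Lmx1b. Whether equal numbers mark paired samples is not given. The deviations of same-numbered libraries correlated at -0.105 to 0.121. These values cannot decide it, since the deviations within a group of 2 libraries mirror each other.

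HFSC libraries held the fewest counts, 25098237 to 29902799. With 2 libraries of ORS and 2 of basal HB, and with their origin unstated, the spread is poorly known.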
